A study of Mus musculus with 6 samples.

Results

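Serpins are protease inhibitors, and 7 of them were followed in group 2 innate lymphoid cells (ILC2s) given an agonist of the costimulatory receptor GITR. The members were Serpina3f, Serpina3g, Serpina3n, Serpinb1a, Serpinb6a, Serpinb6b and Serpinb9, taken from the deposited gene table by name. They are 7 of the 68 genes in the table whose name begins with Serpin and of 53278 genes in all. They were chosen by name with their normalized counts in these libraries already known, so the changes of the members are given as a description and not as a test. All mice were C57BL/6, were 8 weeks old and received 3 intraperitoneal injections of 1 µg IL-33, an alarmin that activates ILC2s. ILC2s were sorted from visceral adipose tissue and cultured with IL-2 (10 ng/mL) and IL-7 (10 ng/mL). The treated group had the agonistic anti-GITR antibody DTA-1 at 5 µg/mL (n = 3 libraries), and the control group had the isotype control antibody (n = 3). The labels give 48 h of culture. A shorter time stands in the results text of the paper. Each library was made from 10 ng of RNA. The labels do not say whether the libraries came from separate mice or cultures, so every SD below is the spread between these libraries, which may be technical. The SEs and intervals of fold changes were derived from the test statistic of a fit across genes. They rest on the same libraries, and their variance also draws on other genes.

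A serpin presents an exposed reactive centre loop as bait. The target protease cuts the loop, which then folds into the body of the serpin and traps the protease in a covalent complex. The clade A serpins of the Serpina3 group are mostly secreted, and the clade B serpins act mainly inside cells, where they protect leukocytes from their own granule and lysosomal proteases. Serpina3g, also known as Spi2A, is an unusual clade A member that stays inside the cell and inhibits lysosomal cysteine cathepsins. Serpinb9 inhibits granzyme B, and Serpinb1a inhibits the neutrophil proteases elastase, cathepsin G and proteinase 3.

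The loops of the 7 members are shown because they set which protease each serpin can trap. These are coding bases of GENCODE transcripts (GRCm38), 5′ to 3′, from the hinge of the loop to the end of the variable stretch. Capitals mark the first 12 bases, which encode the start of the hinge. Each loop was found by the 4 residues they encode and by an anchor of 4 residues further on, just before which the printed bases end.
Serpina3f: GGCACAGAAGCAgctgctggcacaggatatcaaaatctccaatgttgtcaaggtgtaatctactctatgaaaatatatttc
Serpina3g: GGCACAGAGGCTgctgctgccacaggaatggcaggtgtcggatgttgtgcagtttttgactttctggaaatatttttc
Serpina3n: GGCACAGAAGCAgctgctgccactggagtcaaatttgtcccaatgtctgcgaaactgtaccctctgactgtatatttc
Serpinb1a: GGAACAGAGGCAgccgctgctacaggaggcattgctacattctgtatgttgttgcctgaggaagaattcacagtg
Serpinb6a: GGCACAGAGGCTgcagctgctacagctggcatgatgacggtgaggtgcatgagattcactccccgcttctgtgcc
Serpinb6b: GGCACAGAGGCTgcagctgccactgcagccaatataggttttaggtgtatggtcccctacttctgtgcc
Serpinb9: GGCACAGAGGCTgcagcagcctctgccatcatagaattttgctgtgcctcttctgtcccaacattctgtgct
The capitals are spelled alike in Serpina3g, Serpinb6a, Serpinb6b and Serpinb9, and alike in Serpina3f and Serpina3n. With the coding sequences aligned, Serpina3f and Serpina3g were 87.4% identical in aligned bases, and in the stretch after the capitals 68.2%. For Serpina3g and Serpina3n these shares were 84.7% and 59.1%, and for Serpina3f and Serpina3n 85.7% and 76.2%. Serpinb6a and Serpinb6b were 86.3% identical over the coding sequence and 71.9% after the capitals. The remaining pairs of members were 57.5% to 69.0% identical. The Serpina3g transcript used has only 744 coding bases, against 1335 in Serpina3f and 1254 in Serpina3n. Its alignments thus covered 744 bases with Serpina3f and 648 with Serpina3n.

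Total expected counts, which are estimates of the reads of each gene and can be fractional, were 30569351 to 35131329 per library. Normalized counts are CPM after edgeR's TMM scaling. Where 3 values are given for a group, they are those of replicates 1, 2 and 3 in order. All 12 ILC2 markers examined, such as the transcription factor gene Gata3, were measured, and their sum was 9366 to 10213 normalized counts. On the first principal component (26.2% of the variance) the library labelled DTA-1 replicate 1 was at −9.6. The isotype control libraries were at −25.5 to −15.6, and DTA-1 replicates 2 and 3 were at 40.2 and 28.6. Results are therefore given with and without that library. As it was singled out by its expression, leaving it out can widen a difference and narrow its error, and values without it are descriptions. The summed markers of other cells were low. They were 40.1 to 53.3 for T cells (Cd8a at 0), 6.79 to 12.7 for macrophages (C1qb at 0) and 0 to 1.15 for neutrophils (S100a8, S100a9 and Retnlg at 0). They were 0 to 0.452 for eosinophils (Ear2 at 0), 0 to 0.454 for adipocytes (Cidec and Lep at 0) and 0.339 to 1.41 for mesothelial cells (Msln and Upk3b at 0). The endothelial list summed to 18.4 to 24.4 in isotype control and 10.6 to 18.3 with DTA-1, nearly all of it Pecam1, with Cdh5 and Cldn5 at 0. In bulk RNA, fewer cells of a type and less RNA per cell cannot be told apart.

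Levels differed widely among the 7 serpins. Per kb of exon, Serpinb1a was the most abundant in isotype control at 157 ± 5.43 normalized counts per kb (SD, n = 3). Serpinb6a followed at 30.8 ± 2.00. Serpina3g at 11.5 ± 2.70 and Serpinb9 at 11.2 ± 1.44 did not differ beyond their spread. Serpinb6b lay below them at 4.14 ± 0.297. Serpina3n at 0.289 ± 0.307 and Serpina3f at 0.120 ± 0.105 were lowest and did not differ beyond their spread. With DTA-1 the order was Serpinb1a (150 ± 15.7 per kb), Serpina3g (38.9 ± 23.6), Serpinb6a (30.4 ± 2.07), Serpinb9 (11.4 ± 2.08), Serpinb6b (4.59 ± 0.858), Serpina3f (0.234 ± 0.256) and Serpina3n, which had 0 counts. Serpina3g and Serpinb6a did not differ beyond their spread there. The listed serpins are not simply the most abundant of the family, since Serpine2, which is not listed, had 1.46 normalized counts per kb in isotype control, above Serpina3n and Serpina3f. As a share of all serpin RNA per kb, the 7 members held 97.5% to 99.0% in every library. Serpinb1a alone held 69.5% to 72.4% in isotype control. With DTA-1 it held 72.3%, 60.6% and 56.7%. The share of Serpina3g was 3.81% to 6.29% in isotype control and 5.32%, 19.7% and 22.9% with DTA-1. The summed normalized counts of all serpins without Serpina3g were 578 to 624 in isotype control and 525 to 615 with DTA-1.

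**Figure D1:**
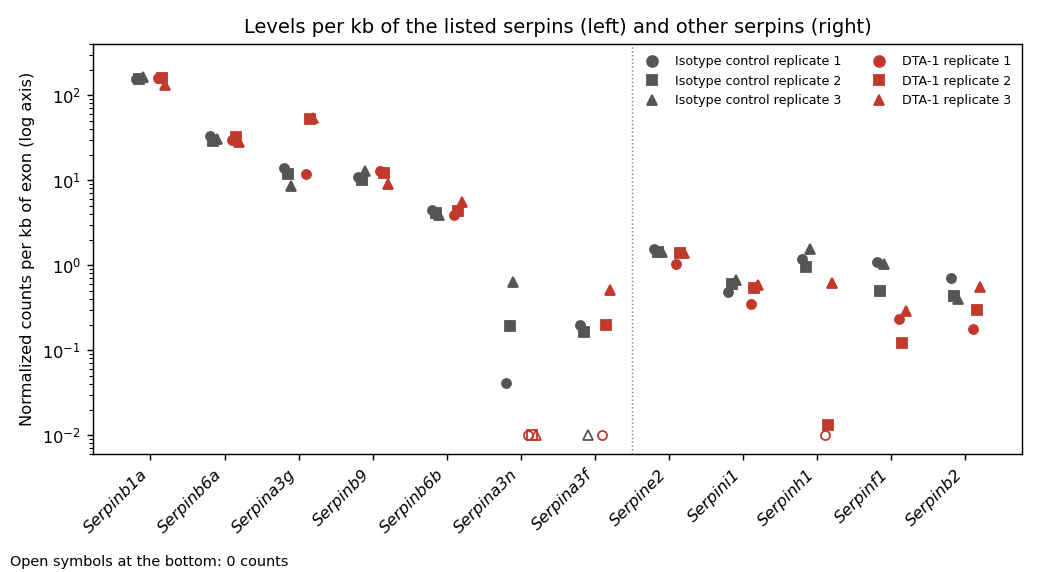
Normalized counts per kb of exon (log axis) of the 7 listed serpins, left of the dotted line, and of the other serpins with a mean of at least 1 normalized count, right of it, with 1 symbol per library and open symbols at the bottom for 0 counts. Serpinb1a is near 150 per kb in both groups, and Serpina3g is the listed serpin with 2 DTA-1 libraries far above the isotype control libraries.

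Serpina3g (chr12:104236245-104241939, plus strand, mm10) was the member with the largest difference between group means in normalized counts. Its normalized counts were 29.4, 24.8 and 18.1 with the isotype control. With DTA-1 they were 24.6, 109 and 112. DTA-1 replicates 2 and 3 were each above every isotype control library, and DTA-1 replicate 1 was among them, so the groups overlapped. The means were 24.1 ± 5.67 and 82.0 ± 49.8 (SD, n = 3), a log2 fold change of 1.77 (SE 0.62, 95% interval 0.17 to 3.37) in the edgeR fit. DTA-1 replicate 1 was 1.02 times the isotype control mean, and DTA-1 replicates 2 and 3 together were 4.59 times it. Without DTA-1 replicate 1 the change was 2.20 (SE 0.16, interval 1.84 to 2.56), with DTA-1 at 111 ± 2.38 (n = 2). Leaving out each library in turn gave 1.47 to 2.20.

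Serpina3f (chr12:104214544-104221129, plus strand) lies beside Serpina3g in the clade A cluster and was near the limit of detection. Its expected counts were 16.1, 13.2 and 0 in isotype control and 0, 14.2 and 36.5 with DTA-1. One library in each group was at 0, and the groups overlapped. The change was 0.96 on the log2 scale (SE 1.19, interval −1.65 to 3.57), and leaving out DTA-1 replicate 3, which has the highest count, turned it to −0.28. Of the stretches of 75 bases in its exons, 5.33% also occur in other Serpina3 genes, among them Serpina3g. For Serpina3g this share was 7.69%, with Serpina3h, Serpina3i, Serpina3e-ps and Serpina3f. Reads from such stretches can be split between the genes, so the counts of Serpina3f and Serpina3g are uncertain. Only 2 of the 6 Serpina3f values, both 0, and 1 of the 6 Serpina3g values were whole within 0.01. Fractional values need not mark such sharing. Of the members with 0.0% of stretches shared, 6 of the 6 Serpinb9 values but only 4 of the 6 Serpinb6b values were whole. In Serpinb1a, with 0.31% shared, 0 of the 6 values were whole. The size of the uncertainty in the counts of Serpina3f and Serpina3g was not tested. Serpina3f stood at 0 to 1.54% of Serpina3g in normalized counts over the 6 libraries. Serpina3h and Serpina3e-ps were at 0 in every library, and Serpina3i reached 0.157 normalized counts in 1 library.

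Serpina3n (chr12:104406729-104414329, plus strand), a secreted inhibitor induced in acute inflammation, had expected counts of 3.04, 14.3 and 46.3 in isotype control and 0 in each DTA-1 library. Isotype control replicate 3 held most of the counts. Since 0 allows up to 3 counts, isotype control replicate 1 is not told apart from the DTA-1 libraries at this depth. Against the limit of 3 counts per library, the mean of 0.596 normalized counts in isotype control was at least 6.22-fold higher than with DTA-1. Without isotype control replicate 3 this bound was 2.53-fold. The gene did not pass the filter on low counts with all 6 libraries, so the fit across genes holds no value for it. Only 1.46% of its stretches of 75 bases occur in another gene.

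The sequence before the clade A genes is shown because Serpina3g and Serpina3f lie in the same cluster and share an arrangement of short strings in 1 of the windows of each. These are the 250 bases before the RefSeq start (GRCm38.p6, plus strand) at chr12:104214294-104214543 for Serpina3f, chr12:104235897-104236146 for Serpina3g and chr12:104406458-104406707 for Serpina3n. Capitals mark matches on either strand to GGG and CC set 5 bases of any kind apart, a string like an NF-κB site, or TTCNNNGAA, a string like a STAT site. Neighbouring matches to the first string may overlap. RefSeq gives a second start for Serpina3f, whose window (chr12:104214383-104214682) is not printed.
Serpina3f: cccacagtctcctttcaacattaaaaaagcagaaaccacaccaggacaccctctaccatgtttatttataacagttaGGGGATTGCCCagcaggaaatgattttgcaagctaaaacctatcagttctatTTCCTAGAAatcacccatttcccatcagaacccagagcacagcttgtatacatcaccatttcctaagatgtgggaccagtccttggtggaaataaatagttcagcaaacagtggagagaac
Serpina3g: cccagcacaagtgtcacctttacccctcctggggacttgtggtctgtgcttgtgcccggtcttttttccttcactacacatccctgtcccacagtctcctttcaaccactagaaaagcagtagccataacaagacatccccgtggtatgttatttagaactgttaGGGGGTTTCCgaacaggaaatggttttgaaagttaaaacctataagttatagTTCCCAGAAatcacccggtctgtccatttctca
Serpina3n: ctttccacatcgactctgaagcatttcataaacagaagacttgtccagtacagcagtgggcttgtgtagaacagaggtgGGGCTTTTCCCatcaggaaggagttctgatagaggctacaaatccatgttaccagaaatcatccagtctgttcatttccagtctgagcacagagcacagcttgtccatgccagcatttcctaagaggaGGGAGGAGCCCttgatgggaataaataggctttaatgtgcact
In the windows printed for Serpina3f and Serpina3g the first match to the NF-κB-like string and the match to TTCNNNGAA begin 52 bases apart. The letters around and between the matches are also alike in these windows, so the shared spacing is not a separate observation in each gene. The second window of Serpina3f overlaps the first, and holds 0 matches to the first string and 1 to the second. It begins just after the NF-κB-like matches of the printed window, and its TTCNNNGAA match is the same site. Its lack of the arrangement is thus set by where it begins. The Serpina3n window holds matches to the first string and 0 to the second. The windows counted over all genes, like the second one of Serpina3f, also hold 50 bases after the start. Of 32851 such RefSeq promoter windows, 50.8% hold the first string, 8.3% hold the second and 3.5% hold both, so a match to the first alone is common. These matches describe letters only.

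The clade B members lie on chromosome 13, and in each the groups overlapped. Serpinb1a (chr13:32842092-32851185, minus strand) had 356, 355 and 377 normalized counts in isotype control and 365, 368 and 304 with DTA-1. Only DTA-1 replicate 3 was below the other libraries. The log2 fold change was −0.07 (SE 0.08, interval −0.24 to 0.10). Serpinb9 (chr13:33003250-33017957, plus strand) had 37.7, 34.9 and 44.7 normalized counts in isotype control and 45.1, 42.8 and 31.5 with DTA-1. Its groups overlapped, with a log2 fold change of 0.03 (SE 0.14, interval −0.29 to 0.34).

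Serpinb6a (chr13:33917918-34002794, minus strand), known to bind cathepsin G, had 177, 156 and 166 normalized counts in isotype control and 162, 176 and 154 with DTA-1. The groups overlapped, and the log2 fold change was −0.02 (SE 0.07, interval −0.18 to 0.15). Its exons share 22.0% of their stretches of 75 bases with exons on the opposite strand, of Nqo2, Ripk1 and 1110046J04Rik, and without the strand setting of the counting these reads cannot be told apart. Serpinb6b (chr13:32965209-32979067, plus strand), the closest relative of Serpinb6a among the members, had 10.1, 9.27 and 8.76 normalized counts in isotype control and 8.80, 9.80 and 12.5 with DTA-1. The highest value was DTA-1 replicate 3, the groups overlapped, and the log2 fold change was 0.15 (SE 0.18, interval −0.25 to 0.54). Between libraries of isotype control and of DTA-1, the coefficients of variation were 3.45% and 10.4% for Serpinb1a, 6.50% and 6.83% for Serpinb6a, 7.17% and 18.7% for Serpinb6b and 12.9% and 18.3% for Serpinb9. They were 23.5% and 60.7% for Serpina3g and 87.9% and 109% for Serpina3f, and 106% for Serpina3n in isotype control.

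**Figure D2:**
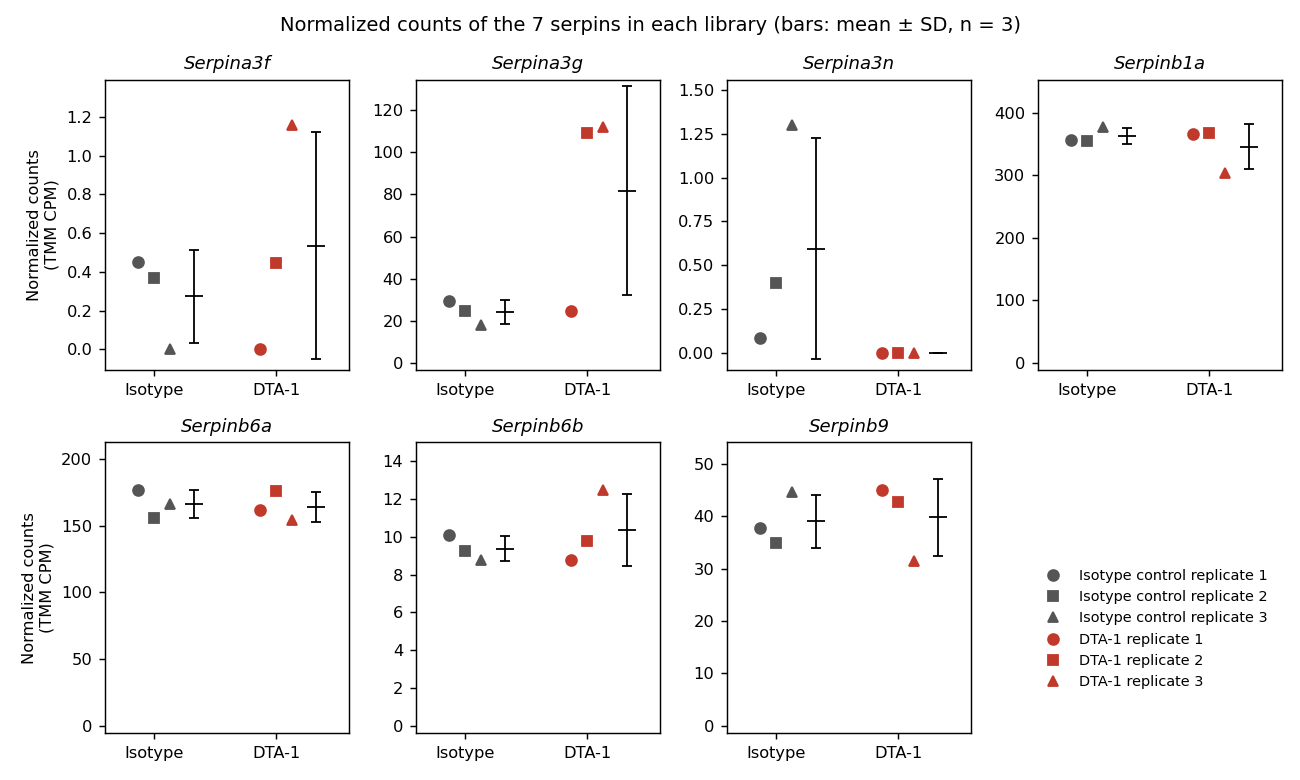
Normalized counts of the 7 serpins in each library, with the group mean ± SD (n = 3) beside the points and an axis of its own for each gene. Serpina3g is at 109 and 112 in DTA-1 replicates 2 and 3 and at 18.1 to 29.4 in the other libraries, Serpina3n is at 0 in every DTA-1 library, and the clade B genes overlap between groups.

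With edgeR's quasi-likelihood test over 14361 genes, 0 of the 6 listed serpins that passed the filter met an adjusted p under 0.05 with a 1.5-fold change, and 0.0% of all genes did. DESeq2 called 0 of the listed serpins and 20 genes in all (0.099% of those it tested), and limma-trend called 0 of both. At an unadjusted p under 0.05 with a 1.5-fold change, 1 listed serpin (Serpina3g) and 2.35% of all genes passed. Without DTA-1 replicate 1, Serpina3g was the only listed serpin called, among 111 genes (0.744%) of 14911 tested. As the members were chosen with this comparison known, nothing is read from these counts. Serpina3n was tested without that library and was not called.

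**Figure D3:**
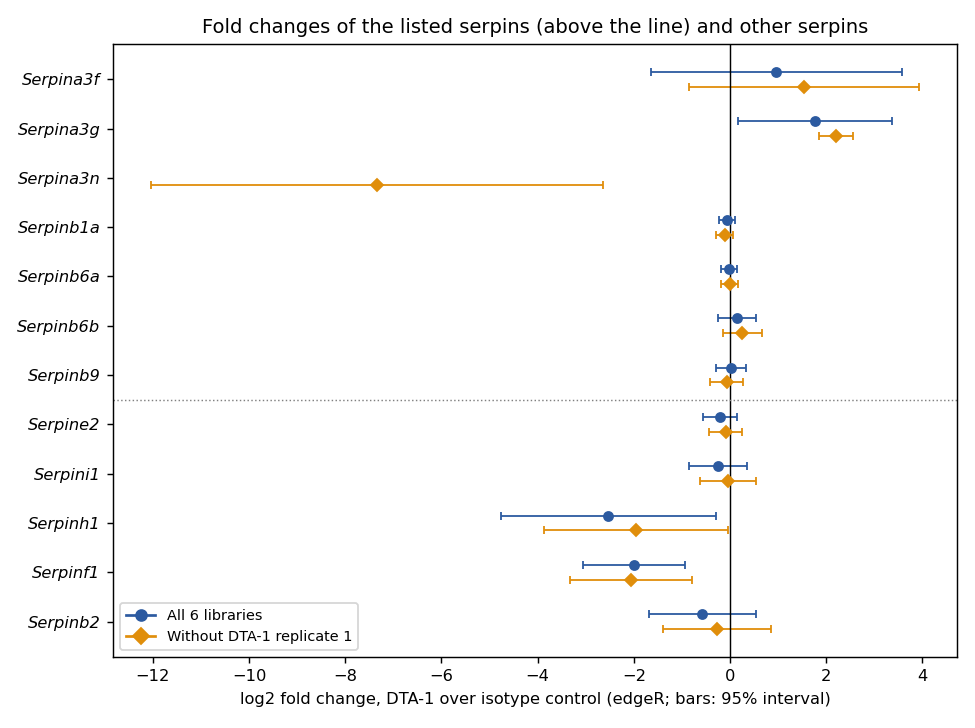
Log2 fold change of DTA-1 over isotype control with its 95% interval for the listed serpins, above the dotted line, and the other serpins with a mean of at least 1 normalized count, with all 6 libraries (circles) and without DTA-1 replicate 1 (diamonds). The Serpina3g interval narrows from 0.17 to 3.37 to 1.84 to 2.56, the clade B members stay near 0, and Serpinf1 and Serpinh1 lie below 0. Serpina3n has only a diamond, at −7.34 (interval −12.03 to −2.65), which rests on 0 counts in the DTA-1 libraries.

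The genes whose pattern over the 6 libraries was nearest to Serpina3g were Ltb and Lta, which encode the lymphotoxin chains, TNF family ligands. They were found among the 7231 genes with a mean of at least 20 normalized counts, by the root mean square difference of log2 normalized counts, each centred on its own mean. The difference was 0.262 for Ltb and 0.272 for Lta, while Serpina3g itself spanned 2.60 on this scale. Ltb had 166, 125 and 142 normalized counts in isotype control and 142, 514 and 491 with DTA-1. Lta had 53.7, 38.1 and 44.3 in isotype control and 41.0, 169 and 148 with DTA-1. In both genes DTA-1 replicate 1 lay within the isotype control libraries, as in Serpina3g. Since both were picked for a pattern like that of Serpina3g, this is no separate observation. Neither gene was called with all 6 libraries (edgeR adjusted p 0.681 for Ltb and 0.692 for Lta).

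For the other members the nearest patterns were mostly those of flat genes. For Serpinb1a, which spanned 0.31, they were Tubgcp6 (0.023) and Ccdc71 (0.030). Eef1d (0.009) and Rnaset2b (0.012) were nearest to Serpinb6a, which spanned 0.20. Serpinb6b was nearest to Ccne1 (0.028) and Pea15a (0.029), and Serpinb9 to Pradc1 (0.056) and Pigt (0.077). Serpina3f was nearest to Zswim4 (0.321) and Cntn1 (0.328), and Serpina3n to Agap1 (0.460) and Tnrc18 (0.468), at distances that are a large part of the 1.73 and 1.85 these genes spanned. Genes with little spread are near to many others on this measure.

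The proteases that serpins and related inhibitors act on were compared as a list of 29, of which 17 were tested. Of these, 13 had a positive log2 fold change and 4 a negative one, with a median of 0.13 against −0.01 over all genes tested. edgeR called 0 of the 17 with all 6 libraries, as did DESeq2 and limma-trend. At an unadjusted p under 0.05 and no fold limit, 4 were higher and 2 were lower, against 4.11% and 3.11% of all genes tested. Without DTA-1 replicate 1, 2 of 17 passed the threshold with a positive change, against 0.583% of all genes tested in that fit.

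These genes were Furin and Cma1. Furin, a proprotein convertase of the secretory pathway, had 1112, 1347 and 1318 normalized counts in isotype control and 1268, 2645 and 2617 with DTA-1. DTA-1 replicate 1 was within the control range, and the other DTA-1 libraries were far above it. The log2 fold change was 0.79 (SE 0.27, edgeR adjusted p 0.655), and 1.06 (SE 0.08, adjusted p 0.000115) without DTA-1 replicate 1. Cma1, a mast cell chymase, had 3.67, 4.85 and 4.85 in isotype control and 3.69, 14.2 and 10.9 with DTA-1, a log2 fold change of 1.10 (SE 0.39, adjusted p 0.632) and of 1.49 (SE 0.22, adjusted p 0.00960) without that library. Cma1 is also 1 of 8 markers of mast cells or basophils. The list summed to 18.1 to 22.2 normalized counts in isotype control and to 16.1, 45.3 and 34.1 with DTA-1, and 4 of its 6 tested genes were positive. None of its genes was at 0 in every library. Of its most counted genes, Cpa3 had 7.49, 7.30 and 4.37 in isotype control and 6.82, 19.4 and 12.8 with DTA-1, while Tpsb2 had 4.38, 6.04 and 5.02 and then 3.66, 8.26 and 4.96. Tpsab1 and Mcpt8 had lower means with DTA-1 (0.495 and 0.434) than in isotype control (0.936 and 0.851). The part of such cells in the values of Cma1, Furin and Serpina3g was not tested.

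**Figure D4:**
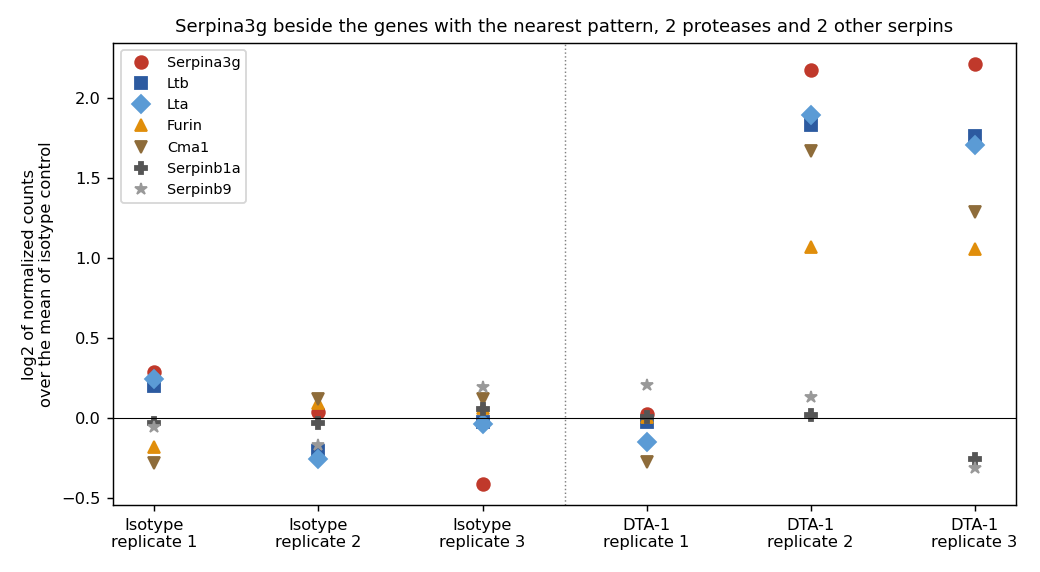
Log2 ratio of normalized counts in each library to the mean of isotype control, for Serpina3g, the genes nearest to it in pattern (Ltb and Lta), the proteases Furin and Cma1, and the serpins Serpinb1a and Serpinb9. In DTA-1 replicates 2 and 3 the first 5 genes lie above the control mean, and in DTA-1 replicate 1 they lie near it.

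The protease targets of the members were present at unequal levels. Gzmb, the granzyme that Serpinb9 inhibits, had 9.50, 24.6 and 11.6 normalized counts in isotype control and 16.9, 18.8 and 22.3 with DTA-1. Its groups overlapped (log2 fold change 0.35, SE 0.29, edgeR adjusted p 0.833). Of the neutrophil proteases that Serpinb1a inhibits, Elane was at 0 in every library, which allows up to 0.0848 to 0.0970 normalized counts. Prtn3 reached 0.0647 in 1 library, and Ctsg had 0.129 to 2.15. These 3 were singled out after their values were seen.

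The lysosomal cysteine proteases, the class that Serpina3g inhibits, ranged widely in counts. Ctsk, named after its values were seen, did not pass the filter, with 0.283, 0.143 and 0.539 normalized counts in isotype control and 0.0323, 0 and 0 with DTA-1. Ctsb, a cathepsin of most cell types, had 463 to 490 normalized counts in isotype control and 438 to 472 with DTA-1 (log2 fold change −0.07, SE 0.06, adjusted p 0.848). Ctsh had 62.5 to 70.2 and 49.0 to 57.8, and Lgmn, an asparaginyl protease, had 31.0 to 34.6 and 24.3 to 25.9. In both, every DTA-1 library was below every isotype control library, as in 6.03% of all genes tested. Their log2 fold changes were −0.35 (SE 0.09) and −0.39 (SE 0.10), with an edgeR adjusted p of 0.627 for each. Ctsz (0.14), Ctsc (0.21), Ctsl (0.01), Ctss (0.51) and Ctsw (0.07) had log2 fold changes with adjusted p values of 0.675 to 0.994. The remaining proteases with a mean of at least 5 normalized counts were the inflammatory caspases Casp1 (−0.22) and Casp4 (0.12) and the tryptase Tpsb2 (0.13), none of them called.

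Among the 61 other serpins, 45 had 0 counts in every library, 11 had counts with a mean under 1 normalized count, and 5 had a mean of at least 1. The test covered 7 of them, 1 with a positive and 6 with a negative log2 fold change, and their median was −0.25 against −0.01 over all genes. edgeR called 0, as did DESeq2 and limma-trend, and 2 were lower at an unadjusted p under 0.05 with a 1.5-fold change, against 1.26% of all genes. In 3 of the 7 every DTA-1 library was below every isotype control library, against 6.03% of all genes tested. Serpinf1, or PEDF, a secreted serpin that inhibits no protease, had 2.57, 1.17 and 2.41 normalized counts in isotype control and 0.550, 0.288 and 0.690 with DTA-1 (log2 fold change −2.00, SE 0.48, edgeR adjusted p 0.627). Serpinh1, a collagen chaperone of the endoplasmic reticulum also known as HSP47, had 2.91, 2.31 and 3.77 in isotype control and 0, 0.0320 and 1.51 with DTA-1 (−2.53, SE 1.01, adjusted p 0.657). The Serpinh1 change was −7.24 without DTA-1 replicate 3, its only treated library with more than 1 count. Serpine2, an inhibitor of thrombin and plasminogen activators, was the most abundant of the 5, with 12.7, 11.8 and 11.9 in isotype control and 8.67, 11.4 and 11.4 with DTA-1 (−0.21, SE 0.16, adjusted p 0.819). Serpini1, or neuroserpin, had 3.50 to 4.90 and 2.52 to 4.27 (−0.25, SE 0.27), and Serpinb2, a plasminogen activator inhibitor, had 0.935 to 1.64 and 0.420 to 1.29 (−0.58, SE 0.51).

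Among the 10 fibroblast markers, all 6 tested had a negative log2 fold change, with a median of −1.91. Their list summed to 11.9, 5.90 and 14.6 normalized counts in isotype control and to 1.00, 1.35 and 6.15 with DTA-1. Mgp and Dpt were at 0 in every library, and Sparc, Col3a1 and Col1a1 were the most counted. Isotype control replicate 3 was highest in this sum, in Serpinh1 and in Serpina3n, and isotype control replicate 1 in Serpinf1. DTA-1 replicate 3 had a higher sum than isotype control replicate 2, with Serpina3n at 0. Of the markers with counts, 2 were likewise at 0 in every DTA-1 library. They were Pdgfra (1.92, 0.399 and 0.709 in isotype control) and Lum (0, 0 and 0.0850). The other markers with counts had some in DTA-1 replicate 3. The part of such cells in the values of Serpinf1, Serpinh1 and Serpina3n was not tested.

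**Figure D5:**
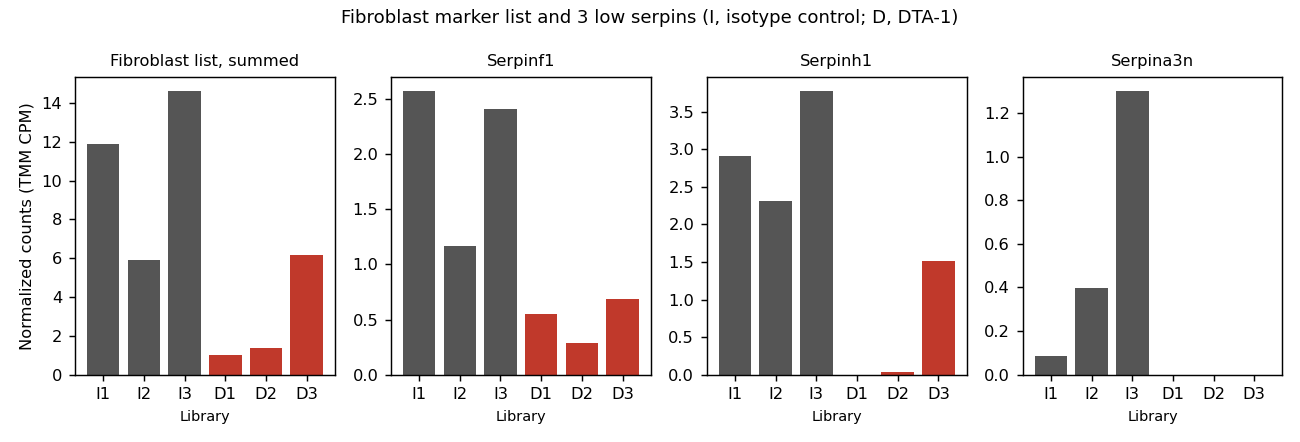
Normalized counts in each library of the summed fibroblast marker list and of Serpinf1, Serpinh1 and Serpina3n, as bars from 0. The sum is 5.90 to 14.6 in isotype control and 1.00 to 6.15 with DTA-1, and Serpinf1 and Serpinh1 are each lower in every DTA-1 library than in any isotype control library. Serpina3n is at 0 with DTA-1 and at 0.0848 in isotype control replicate 1, which is within the limit of a count of 0.

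Inhibitors of other families were compared as a list of 22, of which 10 were tested. Of these, 4 had a positive and 6 a negative log2 fold change, with a median of −0.11 against −0.01 over all genes. edgeR, DESeq2 and limma-trend called 0, also without DTA-1 replicate 1 in edgeR, and 1 was higher and 2 were lower at an unadjusted p under 0.05 with no fold limit (4.11% and 3.11% of all genes tested). Cst3, or cystatin C, a secreted cathepsin inhibitor, had 404 to 453 normalized counts in isotype control and 362 to 432 with DTA-1 (−0.06, SE 0.08). Cst7, or cystatin F, a cystatin of leukocyte granules, had 106 to 109 and 108 to 113 (0.05, SE 0.06). Cstb, the cytosolic cystatin B, had 87.1 to 106 and 100 to 136 (0.28, SE 0.11, edgeR adjusted p 0.657). Spint2, a Kunitz inhibitor, had 88.8 to 111 and 86.2 to 95.1 (−0.16, SE 0.09), and Reck, an inhibitor of matrix metalloproteases, had 5.22 to 9.18 and 5.19 to 7.91 (0.04, SE 0.26). Slpi and Timp2, named after their values were seen, were lower at an unadjusted p with a 1.5-fold change, with means over the 6 libraries of 1.02 and 1.18.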

How the data were processed

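RNA of sorted ILC2s was sequenced in 3 libraries with DTA-1 and 3 with isotype control. Per the labels, the submitters' processing notes name bcl2fastq 2.17.1.14, STAR 2.5.3a, Partek and mm10. The annotation and the strand setting are not given in the sources used here. The deposited values are expected counts (estimates of the reads of each gene), which the authors did not normalize. In the table, 0 columns belonged to other samples.

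Expected counts were rounded to whole numbers. edgeR's filterByExpr took out genes of low counts, and 14361 of 53278 were tested (edgeR 4.0.16 in R 4.3.3, TMM, robust quasi-likelihood F test, Benjamini-Hochberg adjustment). A call needed an adjusted p under 0.05 and a 1.5-fold change. Normalized counts are CPM after TMM. Totals were 30569351 to 35131329 expected counts per library, and 0 counts were read as up to 3, which covers counting error only. DESeq2 1.42.0, limma 3.58.1, other filters, a replicate block and each library left out were tried as alternatives. The procedure was tested on simulated data, 14044 genes with 200 changed 2-fold, of which 189 were recovered with 5 false calls. The changed genes were drawn from those with a mean over 5 normalized counts. Every simulated treated library was changed alike, with the dispersion taken from the trend over genes. No simulated treated library lay near the controls, so this recovery does not carry over to the real comparison.

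The members and all lists were chosen with earlier results of these data known. Named were the listed serpins, other serpins with a mean of at least 1 normalized count, listed proteases and inhibitors with a mean of at least 5, and for each member the 2 other genes (mean of at least 20) with the smallest root mean square difference of log2 normalized counts, each centred on its own mean. Exon lengths and coding sequences came from GENCODE mouse release M21 (GRCm38), promoters from RefSeq (GRCm38.p6). Alignments were made with Biopython 1.88.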

Additional observations from a re-analysis of the deposited data

How the results depend on the processing

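All limits below concern DTA-1 against isotype control, where a call needed 1.5-fold and an adjusted p under 0.05. Over all genes, edgeR called 0 genes in the 6 libraries. It called 2 with no filter except 1 count, 1 with the replicate number as a block and 337 at an unadjusted p under 0.05, while DESeq2 called 20. Leaving out 1 library gave 0 to 111 calls, and the 111 came without DTA-1 replicate 1. For the 7 listed serpins this range was 0 to 1, and for the proteases 0 to 2 (Furin and Cma1 without DTA-1 replicate 1). At an unadjusted p the count was 1 for the listed serpins, 2 for the other serpins, 3 for the proteases and 2 for the other protease inhibitors. DESeq2's size factors, limma-trend, the filter of 10 counts in every library and the absence of a fold limit gave 0 calls in each list.

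Leaving out 1 library turned the sign of some log2 fold changes. Among the listed serpins it gave −0.28 to 1.54 for Serpina3f, −0.11 to 0.02 for Serpinb1a, −0.07 to 0.03 for Serpinb6a, −0.01 to 0.25 for Serpinb6b and −0.07 to 0.17 for Serpinb9. Among the other genes it gave −0.09 to 0.15 for Ctsl, −0.11 to 0.33 for Reck, −0.01 to 0.16 for Ctsw, −0.03 to 0.23 for Casp4, −0.11 to 0.01 for Cst3 and −0.25 to 0.36 for Tpsb2, and the cause was not tested. Replicate numbers are shared between the groups, but the labels do not say whether they pair the libraries. No pairing by number was seen, which cannot show that there was none. The correlation of deviations from the group means was −0.007, −0.003 and 0.015 for equal numbers, and only the replicate 3 libraries correlated best with their own number. With the replicate block the Serpina3g change was 1.56, and 0 of the listed serpins were called. At this depth a count of 0 allows 0.0848 to 0.0970 normalized counts, which limits what can be said of Serpina3f and Serpina3n.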
